A study of Mus musculus with 2 samples.

Results

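The genes described here are 10 transcripts of the collecting duct, chosen by their symbols from a table of 20002 mouse genes: Aqp2, Aqp3, Aqp4, Avpr2, Scnn1a, Scnn1b, Scnn1g, Slc4a1, Slc26a4 and Foxi1. Of these genes, 7 are used as genes of principal cells and 3 as genes of intercalated cells. RNA-seq of whole mouse kidney was compared between 1 control library and 1 library of Reg-2 CKO mice, in which Regnase-2, a member of a family of RNases that degrade mRNA, encoded by Zc3h12b, was targeted in proximal tubules.

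Principal cells reabsorb water and sodium. Vasopressin binds the V2 receptor (Avpr2) and, through cAMP, brings the water channel aquaporin-2 to the apical membrane, while aquaporin-3 and aquaporin-4 let water leave across the basolateral membrane, and sodium enters through the epithelial sodium channel (ENaC), built of the subunits encoded by Scnn1a, Scnn1b and Scnn1g. Intercalated cells, which depend on the transcription factor Foxi1, move acid and base: type A cells secrete acid and return bicarbonate to blood through the anion exchanger AE1 (Slc4a1), and type B cells secrete bicarbonate through pendrin (Slc26a4).

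Both groups were C57BL/6J mice on a standard chow diet, with no further treatment. CKO mice received AAV9 carrying shRNA against Regnase-2 by tail vein at 11 weeks of age. The control vector was described both as control shRNA and as empty, and the age at collection both as 14 and as 16 weeks. The label of the CKO group names a conditional knockout, whereas the agent was an shRNA, and its limitation to proximal tubules rested on the AAV9 vector and was examined in the study by immunofluorescence of Regnase-2 with a proximal tubule lectin. RNA came from the left kidney, so the collecting duct was measured together with all other cells of the organ. Whether a library held 1 mouse or a pool, and the sex of the mice, were not given in the sources used here.

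The deposited values are whole numbers that the authors call normalized counts, and the lowest was 35 in control and 51 in CKO. A floor of 34 and 50, the lowest value minus 1, was subtracted, and the remainder was taken as reads, which is an inference. This gave 38851231 reads in control and 43588721 in CKO. To bring the libraries to a common scale, each CKO value was then multiplied by 0.667, the median gene ratio (control over CKO), and is called scaled reads. The log2 ratio is that of CKO scaled reads plus 1 to control reads plus 1, and the filter, a minimum of 10 scaled reads in either library, left 17469 genes. Where an interval follows a log2 ratio or fold, it is the 95% Clopper-Pearson interval. It covers counting error only and takes a unit as 1 read. With 1 library per group the differences had no replicate check, no test between groups was possible, and a fold compares these libraries rather than the conditions.

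The targeted gene Zc3h12b had 47 reads in control and 59 in CKO, or 39.3 scaled reads. Its log2 ratio was −0.25 (−0.83 to 0.33), an interval that includes 0, so whole-kidney reads did not check the group label, and with equal totals its value was 0.16. Of the tissue label, the collecting duct markers showed only that collecting duct RNA was present, not which regions of the kidney were sampled. Avpr2 was the lowest of the 10 genes in both libraries, with 571 reads in control and 883 in CKO, so every marker was well above the filter.

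Among the 10 genes, which all passed the filter, none was at least 2-fold higher in CKO, beside 13.4% of all genes kept, and 1, Aqp4, was at least 2-fold lower, beside 5.35%. At 1.5-fold, 3 genes were higher in CKO (Aqp2, Scnn1b and Scnn1g), beside 21.8% of all genes, and 1 was lower (Aqp4), beside 13.9%. Their median log2 ratio was 0.16, and that of all genes kept was 0.022. The genes did not move as a block: 7 had a value above 0 and 3 below it. Among all genes kept, 8999 were above 0 and 8432 below it. With equal totals the counts of the 10 genes became 9 and 1, but the median of all genes was then 0.44. The same background stands behind the counts of higher and lower genes in the lists below. The 10 genes held 0.0543% of control reads and 0.0845% of CKO reads, shares of the totals that do not use the reported scaling. In that scaling their summed reads were 21102 in control and 24554 scaled reads in CKO, a log2 ratio of 0.22. In whole kidney, a change in the number of collecting duct cells and a change in RNA per cell cannot be told apart.

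**Figure D1:**
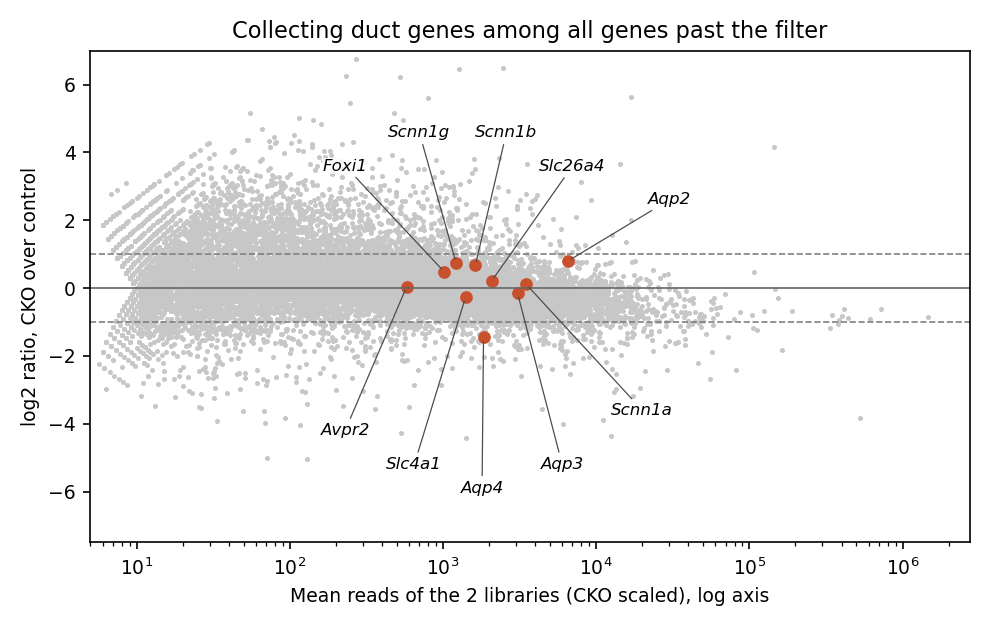
log2 ratio of CKO to control against the mean reads of the 2 libraries (log axis) for 17469 genes (grey) and the 10 collecting duct genes (red, named), with dashed lines at 2-fold. Aqp4, at −1.45, is the named gene outside the lines, and Aqp2, at 0.79, is the highest.

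Scaling to equal totals moved the median of all genes to 0.44, and the values as deposited, neither floored nor scaled, to 0.57. Under both, Aqp3 and Slc4a1 turned from lower to higher, and the other 8 genes kept their sign in all 10 alternatives tried. With equal totals, Aqp2, Scnn1b and Scnn1g reached 2-fold, at 1.21, 1.09 and 1.15, beside 21.9% of all genes, and Aqp4 was still past 2-fold lower, at −1.03, beside 2.47%. In the values as deposited, these 3 genes and Foxi1 were at least 2-fold higher, beside 17.9% of all genes, and none was 2-fold lower, beside 0.655%. Relative to the shifted median of all genes with equal totals, Aqp2, Scnn1b and Scnn1g stood at 0.77, 0.64 and 0.71, and Aqp4 stood at −1.47.

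**Figure D2:**
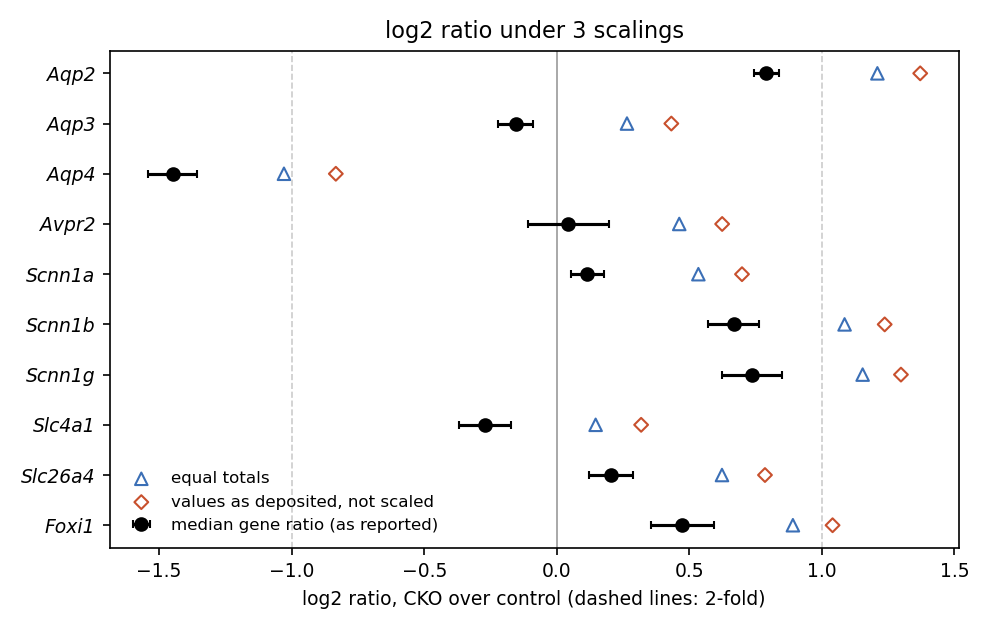
log2 ratio of CKO to control for each gene. Filled points with bars are the reported values with 95% counting intervals, triangles the values with equal totals, and diamonds the values as deposited. Aqp3 and Slc4a1 lie left of 0 in the reported scaling and right of it in the other two.

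Aqp2, the vasopressin-regulated apical water channel and the marker by which principal cells are best known, lies at chr15:99579055-99584547 on the plus strand (GRCm38). It had 4762 reads in control and 12359 in CKO, or 8239 scaled reads. CKO was the high library, by 1.73-fold (1.67 to 1.79), a log2 ratio of 0.79 (0.74 to 0.84) at percentile 83.0 of all genes kept. Per kilobase of its principal transcript, which makes levels of different genes comparable, Aqp2 was the most abundant of the 10 genes in both libraries, with 3356 reads per kb in control and 5806 scaled reads per kb in CKO.

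Aqp3, a basolateral water and glycerol channel at chr4:41092722-41098183 (minus strand), had 3233 reads in control and 4359 in CKO, or 2906 scaled reads. Its log2 ratio was −0.15 (−0.22 to −0.09), slightly lower in CKO, but it was 0.27 with equal totals. It was second to Aqp2 per kilobase in both libraries, at 1832 reads per kb in control and 1646 scaled reads per kb in CKO.

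Aqp4, the other basolateral water channel of principal cells, lies at chr18:15389496-15410982 on the minus strand. It had 2693 reads in control and 1480 in CKO, or 987 scaled reads. Control was the high library, and the value in CKO was 2.73-fold lower (2.56 to 2.91), a log2 ratio of −1.45 (−1.54 to −1.36). This placed Aqp4 at rank 404 from the lowest of 17469 genes. Its log2 ratio stayed below 0 in every alternative tried, between −1.47 and −0.83, and was past 2-fold in all but the values as deposited without scaling. Per kilobase it stood at rank 5 of the 10 genes in control, with 533 reads per kb, and at rank 10 in CKO, with 195 scaled reads per kb.

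In the mouse, Aqp4 is also expressed in the S3 segment, the straight end of the proximal tubule. All 7 genes of an S3 list had lower values in CKO, although 2 of them were higher in the values as deposited, and 5 were at least 2-fold lower, beside 5.35% of all genes. Their summed reads were 148623 in control and 35757 scaled reads in CKO, a log2 ratio of −2.06, and their median was −2.09. The most abundant, Atp11a, had a log2 ratio of −1.87 (−1.89 to −1.85), and the list ran from −4.42 for the organic anion transporter Slc22a7 to −0.45 for Slc22a13, which was 0.14 as deposited. None was at 3 or fewer reads in either library. The part of S3 transcripts in the lower Aqp4 was not tested.

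Of 14 proximal tubule genes, 3 of which are also in the S3 list, 13 were lower in CKO, a count that was 11 with equal totals and 9 in the values as deposited, while 6 fell past the 2-fold line, beside 5.35% of all genes, or 4 in either alternative, beside 2.47% and 0.655%. The list median was −0.95, and the summed reads were 575762 in control and 300247 scaled reads in CKO. The sodium-phosphate cotransporter Slc34a1 was the most abundant, at −1.17, and the lactate transporter Slc5a12, at 0.41, was the highest.

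Within a library the ratio of reads of a pair of genes needs no scaling. The reads of Aqp4 were 0.566 times those of Aqp2 in control and 0.120 times in CKO, a relative change of 0.212 (exact conditional 95% interval 0.197 to 0.228), or 4.72-fold lower. The reads of Aqp3 went from 0.679 to 0.353 times those of Aqp2, a relative change of 0.520 (0.491 to 0.550). Thus both basolateral channels were lower in CKO relative to the apical channel, whatever the scaling. Of 8 such pairs compared, 7 had an interval that did not include 1. Such narrow counting intervals were common at this depth. Among all 17469 genes kept, the interval of the log2 ratio lay above 0 for 6065 and below 0 for 5871.

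Of 5 other aquaporins analysed, Aqp11, an intracellular aquaporin, was lowest at −0.86 (−0.98 to −0.74), and Aqp6, found in vesicles of type A intercalated cells, was highest at 0.46 (0.36 to 0.56). Aqp1, the abundant water channel of proximal tubule and thin limb, had 38399 reads in control and a log2 ratio of −0.47, which was 0.11 in the values as deposited. Aqp8, named after its value was seen, had 26 reads in control and 42 in CKO, with an interval of −0.63 to 0.87 that includes 0.

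**Figure D3:**
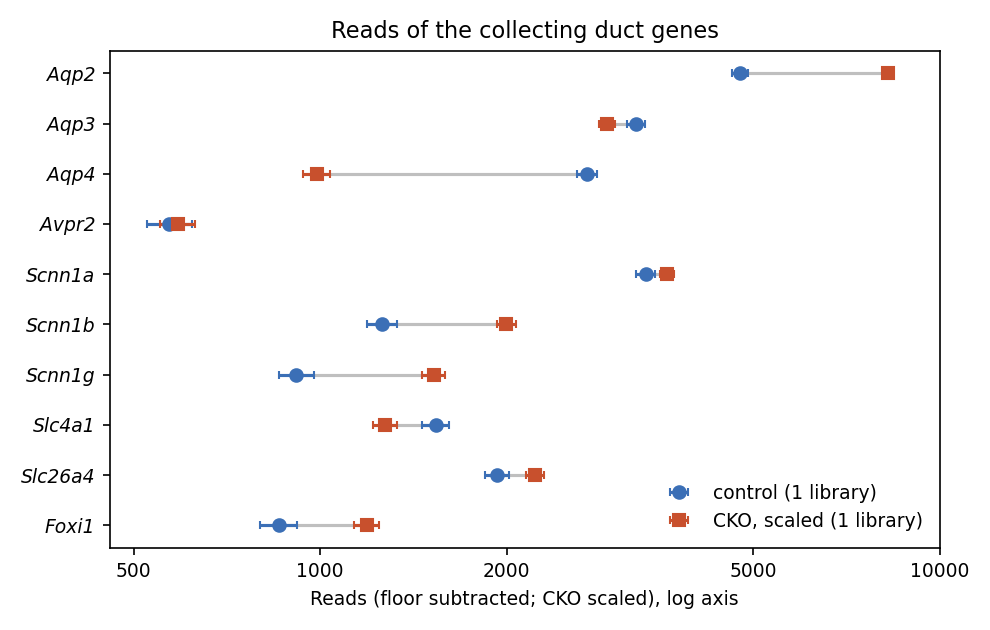
Reads of each gene in the control library (circles) and scaled reads in the CKO library (squares), on a log axis, with exact Poisson 95% intervals for counting error. The long lines between the points of Aqp2 and Aqp4 run in opposite directions, and the intervals of Avpr2 overlap.

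Avpr2, the vasopressin V2 receptor, lies at chrX:73892102-73895502 on the plus strand. Its 571 reads in control and 883 in CKO, or 589 scaled reads, gave a log2 ratio of 0.04 (−0.11 to 0.20). In the reported scaling the interval includes 0, but the value was 0.46 with equal totals and 0.62 in the values as deposited. Exons of Arhgap4 on the opposite strand cover 81.3% of the exon bases of Avpr2, and whether counting used the strand was not given in the sources used here, so reads of the pair may be mixed. Arhgap4, named for this overlap, had 136 reads in control and 363 in CKO. Relative to Aqp2, reads of Avpr2 changed by 0.596 (0.533 to 0.667), lower in CKO.

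The vasopressin and cAMP list of 20 genes had a median of 0.32. In it, 13 genes were higher and 7 lower, which became 19 and 1 with equal totals, and 3 were at least 2-fold higher, a share near the 13.4% of all genes. The count was 5 with equal totals, beside 21.9% of all genes, 7 in the values as deposited, beside 17.9%, and 2 in the latter values scaled by the median ratio, beside 5.98%. The 3 genes were Edn1, Ptger4 and Pde4a, and the latter 2 were singled out after their values were seen. Edn1, which encodes endothelin-1, a peptide that opposes vasopressin in the collecting duct, had 26 reads in control and 335 in CKO and the highest ratio, 3.05 (2.53 to 3.74), or 2.09 in the values as deposited scaled by the median ratio. The prostaglandin E2 receptor Ptger4 stood at 1.98 (1.62 to 2.40), and the cAMP phosphodiesterase Pde4a at 1.01 (0.75 to 1.28). All 3 are also expressed outside the collecting duct. Adcy6, the main adenylyl cyclase of the vasopressin response, was at 0.45 (0.39 to 0.50). Gnas, the stimulatory G protein and the most abundant gene of the list, was at −0.31, and at 0.11 with equal totals.

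Scnn1a and the other ENaC subunits had unlike values. Scnn1a, the alpha subunit needed for channel activity, at chr6:125320659-125344943 (plus strand), had 3350 reads in control and 5444 in CKO, or 3629 scaled reads. Its log2 ratio was 0.12 (0.05 to 0.18), higher in CKO by a small margin in the reported scaling. The value was 0.53 with equal totals and 0.70 in the values as deposited.

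Scnn1b, the beta subunit, had 1257 reads in control and 2995 in CKO, or 1997 scaled reads, and was 1.59-fold higher (1.49 to 1.70). Scnn1g, the gamma subunit, had 915 reads in control and 2286 in CKO, or 1524 scaled reads, and was 1.67-fold higher (1.54 to 1.80). The CKO library was the high library for both, with log2 ratios of 0.67 (0.57 to 0.76) and 0.74 (0.62 to 0.85). These genes are neighbours on the plus strand of chromosome 7, Scnn1g at chr7:121734479-121768475 and Scnn1b at chr7:121865038-121918514, with 96.6 kb between them, whereas Scnn1a is on chromosome 6.

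Pairs of subunits can be compared without scaling. Relative to Scnn1a, reads of Scnn1b changed by 1.47 (1.35 to 1.59) and reads of Scnn1g by 1.54 (1.41 to 1.68), both higher in CKO. Scnn1g relative to Scnn1b gave 1.05 (0.947 to 1.16), an interval that includes 1. As a share of the summed level per kilobase, Scnn1a made up 54.1% of ENaC transcripts in control and 44.1% in CKO. Scnn1b went from 28.6% to 34.3% and Scnn1g from 17.3% to 21.7%. Scnn1a remained the subunit with the highest level per kilobase in both libraries.

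**Figure D4:**
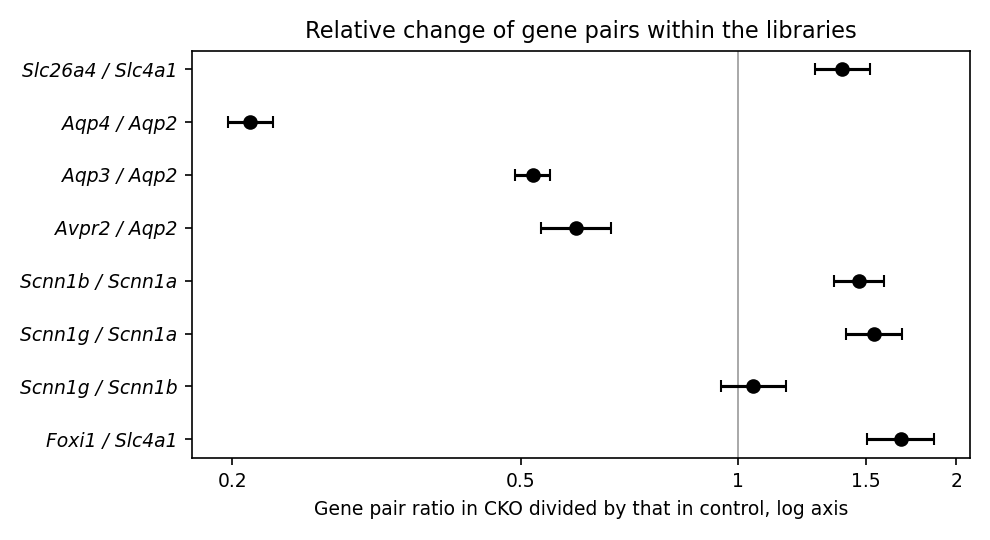
Ratio of the reads of a gene pair in CKO divided by that ratio in control (log axis), with exact conditional 95% intervals for counting error. Aqp4 against Aqp2 lies farthest from 1, at 0.212, and Scnn1g against Scnn1b is the pair whose interval includes 1.

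The upstream sequences of the 3 genes at least 1.5-fold higher are shown to set the letters of their promoters beside the values. The 250 bases before the RefSeq start, which for Aqp2 lies 1 base after the GENCODE start given above, are from RefSeq (GRCm38.p6), plus strand, at chr15:99578806-99579055 for Aqp2, chr7:121864788-121865037 for Scnn1b and chr7:121734229-121734478 for Scnn1g. Capitals mark matches, on either strand, to the letters searched: TGACG, the core of the cAMP response element, GATAA of GATA factors, AGAACA of steroid receptors and GTAAACA of forkhead factors.
Aqp2: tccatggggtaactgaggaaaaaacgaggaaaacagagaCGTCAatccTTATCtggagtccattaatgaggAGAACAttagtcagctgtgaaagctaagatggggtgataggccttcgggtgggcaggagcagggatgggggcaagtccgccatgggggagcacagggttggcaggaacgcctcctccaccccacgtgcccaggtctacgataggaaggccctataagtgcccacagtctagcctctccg
Scnn1b: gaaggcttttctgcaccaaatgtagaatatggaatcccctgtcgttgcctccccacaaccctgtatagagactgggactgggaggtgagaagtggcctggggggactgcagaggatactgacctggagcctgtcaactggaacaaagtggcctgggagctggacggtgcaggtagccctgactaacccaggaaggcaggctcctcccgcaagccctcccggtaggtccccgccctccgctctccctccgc
Scnn1g: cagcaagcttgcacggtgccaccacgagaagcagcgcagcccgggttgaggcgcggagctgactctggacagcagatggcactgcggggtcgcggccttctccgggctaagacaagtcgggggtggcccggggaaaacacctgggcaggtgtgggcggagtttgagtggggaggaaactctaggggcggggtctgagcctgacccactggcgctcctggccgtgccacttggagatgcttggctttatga
Aqp2 held the cAMP response element core 211 bases before its start, the GATA letters at 202 and the steroid receptor letters at 179, and neither ENaC promoter held any of these letters.

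Promoter entries of 300 bases, 250 before to 50 after the start, were matched for 7 of the 10 genes. Aqp4, Scnn1a and Slc4a1 had no entry. TGACG was in 1 of the 7 windows and in 20.8% of 32851 mouse promoters of this length. GATAA was in 3 of 7 (Aqp2, Avpr2 and Slc26a4) and in 25.4% of all, and AGAACA in 4 of 7 (Aqp2, Avpr2, Foxi1 and Slc26a4) and in 19.0% of all. GTAAACA was in 1 of 7, Avpr2, and in 3.65% of all. A match describes letters in a window and is not a measured site.

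Among 17 regulators of ENaC, 9 were higher and 8 lower, which became 15 and 2 with equal totals, and the median was 0.0089. None was past 2-fold, but 3 were at least 2-fold higher with equal totals, beside 21.9% of all genes, and 5 in the values as deposited, beside 17.9%. The kinase Sgk1, which protects ENaC from removal, had 1887 reads in control and 4274 in CKO, a log2 ratio of 0.59 (0.52 to 0.67). Its substrate Nedd4l, the ubiquitin ligase that removes ENaC, was at −0.20 (−0.26 to −0.13), and at 0.22 with equal totals. Hsd11b2, which inactivates glucocorticoids so that aldosterone can act, was at 0.46 (0.40 to 0.53), and Nr3c2, the mineralocorticoid receptor, at 0.16 (−0.02 to 0.35). The clock gene Per1 was highest, at 0.98 (0.86 to 1.09), and the ENaC-cleaving protease Furin lowest, at −0.47, or 0.11 as deposited. Prss8, the channel-activating protease prostasin and the most abundant of the list, was at −0.45, or 0.14 as deposited. Most of these regulators are also expressed in other kidney cells.

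The other principal cell genes, 12 in all, had a median of 0.43, with 7 higher and 5 lower, or 11 and 1 with equal totals. None was past 2-fold, but 2 were at least 2-fold higher with equal totals and 5 in the values as deposited, beside the same 21.9% and 17.9%. Ptges, a prostaglandin E synthase, was highest at 0.84 (0.68 to 1.01), and Gata3, a transcription factor of the collecting duct lineage, was at 0.83 (0.61 to 1.05). Elf5, an epithelial transcription factor of principal cells, was at 0.47 (0.09 to 0.87) on 83 reads in control and 173 in CKO. Tmem45b was lowest, at −0.86 (−0.98 to −0.74). The summed reads of the list were 68090 in control and 65504 scaled reads in CKO, and were dominated by Cdh16, a cadherin of many tubule segments, with 41747 reads in control and a log2 ratio of −0.32, or 0.10 with equal totals.

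Of the intercalated cell genes, Foxi1, at chr11:34204338-34208089 (minus strand), is the transcription factor on which the cell type depends. It had 857 reads in control and 1784 in CKO, or 1189 scaled reads. It was higher in CKO, by 1.39-fold (1.28 to 1.51), with a log2 ratio of 0.47 (0.35 to 0.59), and short of 1.5-fold, but the value was 0.89 with equal totals and 1.04 in the values as deposited.

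Slc26a4, which encodes pendrin, at chr12:31519827-31559969 (minus strand), had 1928 reads in control and 3333 in CKO, or 2222 scaled reads, and a log2 ratio of 0.20 (0.12 to 0.29). Slc4a1, which encodes AE1, at chr11:102348824-102366203 (minus strand), had 1536 reads in control and 1908 in CKO, or 1272 scaled reads, and a log2 ratio of −0.27 (−0.37 to −0.17), but 0.15 with equal totals. Pendrin was thus the higher and AE1 the lower in CKO in the reported scaling. Without scaling, reads of Slc26a4 went from 1.26 to 1.75 times those of Slc4a1, a relative change of 1.39 (1.27 to 1.52). Foxi1 relative to Slc4a1 changed by 1.68 (1.51 to 1.87).

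Slc4a1 is also band 3 of red blood cells, and counts per gene do not separate the kidney form from the red cell form. Of 8 erythroid genes analysed, 4 were higher and 4 lower, or 8 and 0 with equal totals, with a median of 0.022. Their summed reads were 15678 in control and 15559 scaled reads in CKO. Hbb-bs, a beta globin and the most abundant, had 6084 reads in control and a log2 ratio of −0.01 (−0.06 to 0.04), Slc25a37 was lowest at −0.09, and Epb42, a red cell membrane protein, was highest at 1.93 (1.17 to 2.93) on 14 reads in control and 84 in CKO, or 0.89 in the values as deposited scaled by the median ratio. None was at 3 or fewer reads. The part of red cell transcripts in the reads of Slc4a1 was not tested.

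Of 22 other intercalated cell genes, 16 were higher and 6 lower, or 21 and 1 with equal totals, with a median of 0.41. P2ry14, a receptor for UDP-glucose on intercalated cells, at 1.28 (0.93 to 1.66), and Slc4a8, a sodium-driven chloride-bicarbonate exchanger of type B cells, at 1.04 (0.80 to 1.30), were at least 2-fold higher, a smaller share than the 13.4% of all genes. This count of 2 was 8 with equal totals and 11 in the values as deposited, there a larger share than the 21.9% and 17.9% of all genes, and 1 in the latter values scaled by the median ratio, beside 5.98%. None was 2-fold lower in these settings. The ammonia transporter Rhcg was at 0.37 (0.30 to 0.45). Car2, carbonic anhydrase II, the most abundant and not restricted to these cells, was at −0.23, or 0.19 with equal totals. The summed reads were 50323 in control and 52289 scaled reads in CKO.

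Type A and type B genes, 5 each, both held higher and lower members. In type A, Dmrt2, a transcription factor, was highest at 0.92 (0.66 to 1.19), the receptor Kit stood at 0.58 (0.40 to 0.78), and Slc26a7, an anion exchanger, was lowest at −0.67 (−0.94 to −0.40), or 0.01 as deposited. In type B, Slc4a9, the basolateral exchanger AE4, was at 0.76 (0.68 to 0.84) and Insrr, an alkali-sensing receptor, at −0.05 (−0.18 to 0.08), or 0.37 with equal totals. The medians were 0.46 for type A and 0.61 for type B, and the log2 ratios of summed reads were 0.15 and 0.45. These lists include Slc4a1 (type A) and Slc26a4 (type B), each the most abundant gene of its list. The sums are therefore not independent of the pair compared above.

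The proton pump of intercalated cells uses its own subunits beside those found in every cell. Of the former, Atp6v0d2 was at 0.72 (0.61 to 0.84), Atp6v1g3 at 0.35 (0.27 to 0.43) and Atp6v1b1 at 0.20 (0.12 to 0.27), these 3 higher in CKO. Atp6v1c2, another such subunit, named after its value was seen, was at 0.07 (−0.05 to 0.19), an interval that includes 0. Atp6v0a4, which proximal tubule cells also express, was at −0.30 (−0.34 to −0.26), or 0.12 with equal totals. Of 16 ubiquitous subunits, 15 were lower and 1 higher, with a median of −0.31, but with equal totals 4 were lower and the median was 0.11. They ran from Atp6v1a, the most abundant, at −0.50, or 0.08 as deposited, to Atp6ap2, at 0.10.

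**Figure D5:**
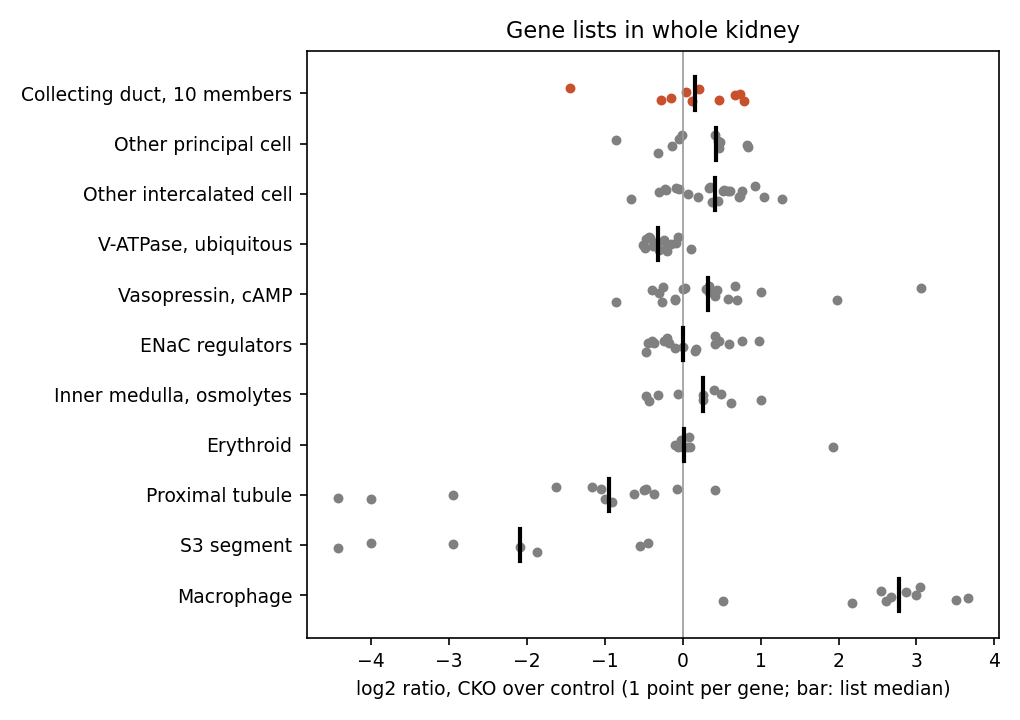
log2 ratio of CKO to control for the genes of 11 lists, 1 point per gene, with a bar at the list median. The 10 collecting duct genes (red, median 0.16) lie around 0, the S3 (−2.09) and proximal tubule (−0.95) medians lie to the left, and the macrophage median (2.77) to the right. With equal totals, the V-ATPase median moves from −0.31 to 0.11.

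All 10 macrophage genes were higher in CKO, 9 of them at least 2-fold, beside 13.4% of all genes, with a median of 2.77. Their summed reads were 6487 in control and 34030 scaled reads in CKO. Cd74, the most abundant, was at 2.61 (2.55 to 2.67), the lysozyme gene Lyz2 was highest at 3.66, and the receptor Csf1r lowest at 0.51. Of 7 urothelium genes analysed, of the lining of the renal pelvis, 5 had fewer than 10 reads in control. These 5 passed the filter through CKO alone, so no count, median or sum is given for the list. Upk3b, the most abundant in control with 30 reads, was at 1.78 (1.24 to 2.43), or 1.12 in the values as deposited scaled by the median ratio, and Upk1a, the lowest, was at 0.89 (0.25 to 1.64), or 0.46 in that alternative. Psca, with 9 reads in control and 291 in CKO, was among the genes that passed through CKO alone, so its ratio is not given. No gene of either list was at 3 or fewer reads. The part of these cells in the values of the collecting duct genes was not tested.

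Podocyte and endothelial genes lay near the median of all genes. The 7 podocyte genes had a median of 0.08, with Ptpro highest at 0.33 and Podxl the most abundant. The 9 endothelial genes had a median of −0.10, which was 0.32 with equal totals, from Kdr at −0.67 to Emcn at 0.14, with Plvap the most abundant.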

How the data were processed

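Libraries were made from whole-kidney RNA with the TruSeq Stranded mRNA kit. The submitters' processing notes and the study's methods name STAR 2.7.3a, HTSeq, DESeq2, edgeR, FastQC, Cufflinks 2.2.1 and build mm10. The deposited values were treated as a score: whole numbers that the authors call normalized counts, with no stated origin for the floor of each column. Their totals were 39531299 in control and 44588821 in CKO. Ratios, Clopper-Pearson intervals of the CKO share and conditional odds ratios were computed with Python 3.11.15, scipy 1.17.1, numpy 2.4.6 and pandas 2.3.3. Plots were drawn with matplotlib 3.10.9. The floor, scaling, calling and Clopper-Pearson steps were run on simulated Poisson counts with the same floors added. That run checked the code, not the inference of the floor or the spread between animals. Positions and lengths came from GENCODE M21 (principal basic protein-coding transcript). Named genes were the 10 members, a set of regulators, and the highest, lowest and most abundant gene of each list; exceptions are named as such, and 2 genes under the rule are not reported here. Members and lists were chosen with earlier results of these data known. Alternatives were other pseudocounts, filters, thresholds, floors and scalings.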

Additional observations from a re-analysis of the deposited data

How the results depend on the processing

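Of all genes, 2334 were at least 2-fold higher and 934 lower in CKO, 71.4% of these calls being higher. With equal totals the counts were 3870 and 437 (89.9% higher), and the medians 0.58 for the collecting duct genes, 0.85 for other principal cell genes and 0.83 for other intercalated cell genes. As deposited without scaling, the counts were 3574 and 131 (96.5% higher), and these medians 0.74, 0.96 and 0.99. As deposited but scaled by the median ratio, the counts were 1196 and 463. In the reported scaling, the counts at 1.5-fold were 3801 and 2423 (61.1% higher), at 4-fold 749 and 166 (81.9% higher), and with at least 50 scaled reads 617 genes were at least 2-fold lower. These shifts follow from the factor, the floor, the threshold or the number of genes kept.

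The relative changes of gene pairs stayed within their intervals in 16 of 16 values, counted once per pair and alternative. Of the named genes' log2 ratios, counted once per gene and alternative, 611 stayed within the counting interval and 169 moved outside it. None past 2-fold changed sign. Most named genes moved with equal totals and in the values as deposited without scaling. With the longest in place of the principal transcript, an alternative chosen after seeing the data, Avpr2 had 205 instead of 315 control reads per kb.

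No paired analysis was possible because there was a single library in each group. Each of the 10 genes had at least 571 reads, so counting error was small, while the spread between animals is unknown. The sizes of the intervals assume that floor-subtracted units are reads.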

Other observations

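Of 20 transcription factor and Notch pathway genes of the ureteric bud and collecting duct, 13 were higher and 7 lower, or 19 and 1 with equal totals, with a median log2 ratio of 0.44. Elf3, an epithelial factor, was highest, with 426 reads in control, 2102 in CKO and a log2 ratio of 1.72 (1.57 to 1.87), the 1 gene at least 2-fold higher, beside 13.4% of all genes, and this count was 8 with equal totals, beside 21.9%. Tfcp2l1, the most abundant, was at 0.41 (0.38 to 0.45).

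Among 10 genes of the inner medulla, thin limb and osmolyte handling, the median was 0.26. Slc14a2, the vasopressin-regulated urea transporter of the inner medullary collecting duct, was highest, with 1009 reads in control, 3045 in CKO and a log2 ratio of 1.01 (0.91 to 1.11), close to the 2-fold line. Akr1b3, the aldose reductase that makes sorbitol, was lowest at −0.46, or 0.13 as deposited, and the taurine transporter Slc6a6, the most abundant, was at 0.40 (0.37 to 0.43).

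Of 10 genes of the thick ascending limb and distal convoluted tubule, 6 were higher and 4 lower, or 7 and 3 with equal totals, with a median of 0.27. The calcium channel Trpv5 was highest, with 263 reads in control, 2381 in CKO and a log2 ratio of 2.59 (2.41 to 2.78). The calcium-binding protein gene Pvalb was lowest at −1.17 (−1.31 to −1.03). It was short of 2-fold lower at −0.75 with equal totals and −0.53 in the values as deposited. Umod, the most abundant, was at 0.47 (0.46 to 0.48).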
